A study of Homo sapiens with 12 samples.

Results

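The genes described here encode the aminoacyl-tRNA synthetases of the cytosol and of mitochondria, measured by RNA sequencing in PE/CA-PJ41, a human oral squamous cell carcinoma line. They were found in the files by gene symbol, from a set proposed with earlier results of these data known: names ending in 1, EPRS1, FARSA and FARSB form the cytosolic group, and names ending in 2 form the mitochondrial group. Of 35 symbols, 33 were found among 20375 listed genes, 18 of 19 cytosolic and 15 of 16 mitochondrial. MARS1 and MARS2 were not listed by name and were not analysed here as members. The study held 3 groups of 4 libraries each: untreated cells (control), cells given human plasma at 10% for 48 h, and cells given platelet-rich plasma (PRP), plasma enriched in platelets, at 10% for 48 h. No culture time is given for control, and the medium and serum are not given in the sources used here. All libraries came from 1 cell line. The labels do not say whether the replicates of a group were grown apart, so each p-value below rests on the spread among libraries alone, and that spread may be technical.

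Each synthetase joins an amino acid to the transfer RNAs that carry it, using ATP, and the charged transfer RNA then enters the ribosome through an elongation factor. Cells keep a set for the cytosol and a set, encoded in the nucleus and imported, for the mitochondrial ribosome; lysine and glycine are exceptions, since KARS1 and GARS1 each give enzymes for both compartments. When amino acids run short, uncharged transfer RNA activates the kinase GCN2, and the transcription factor ATF4 then raises many cytosolic synthetase genes together with genes of amino acid synthesis and import.

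Levels are given as TPM, a share of all transcripts of a library that is scaled for gene length, so genes can be set side by side. Total estimated reads ranged from 36258955 to 41976136 per library, and the 33 members had between 181 and 11120 reads each in a library. Differences were tested with limma on log2(TPM + 1) over 12517 genes in all 12 libraries, and a gene was called at a Benjamini-Hochberg adjusted p under 0.05, two-sided. A log2 difference on this scale understates the change of low genes. Errors beside TPM are SD over 4 libraries, and errors beside log2 differences are standard errors. The 8 keratinocyte and squamous markers chosen to check the cell type were all present, none at 0 in every library, with a summed level of 11510 to 12940 TPM in control and 14140 to 15740 TPM in treated libraries. These markers did not move alike. KRT5 averaged 4784, 7645 and 7677 TPM in control, plasma and PRP, and KRT14 was higher too. KRT17 averaged 2696, 1793 and 1647 TPM, and SFN was called lower with plasma. Leukocyte markers summed to 42.2 to 53.5 TPM in control, 73.9 to 90.5 TPM with plasma and 73.1 to 85.4 TPM with PRP, mostly CD68, and MS4A1 was at 0 in every library. Platelet and erythroid markers summed to at most 3.18 TPM in any library, with PF4, GP9, HBB and ALAS2 (4 of 8) at 0 throughout. The 6 fibroblast and endothelial markers, none at 0 in all libraries, summed to 19.5 to 34.4 TPM in control, 40.1 to 50.7 TPM with plasma and 39.0 to 45.5 TPM with PRP. CDH5 carried most of that difference (9.44, 25.4 and 24.6 TPM), while COL3A1, PDGFRB and PECAM1 were under 1 TPM on average in every group. Their means were lower with either treatment. Libraries overlapped control for COL3A1 with plasma, PDGFRB with PRP and PECAM1 with both. The part of these markers in the results below was not tested, and in bulk RNA fewer cells of a type cannot be told apart from less RNA per cell.

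The cytosolic and mitochondrial genes gave different tallies of calls. With plasma, 8 of the 18 cytosolic genes fell against control and 2 rose, while 4 of the 15 mitochondrial genes rose and 3 fell. With PRP, 7 cytosolic genes fell and 2 rose, and 4 mitochondrial genes rose and 2 fell. Over all genes tested, 49.3% were called with plasma, 20.3% higher and 29.0% lower, and 53.1% with PRP, 21.7% higher and 31.5% lower. The 17 of 33 members called with plasma and 15 of 33 with PRP are therefore close to the share of all genes, and being called is not in itself a result about synthetases. With plasma 6 members lay wholly above and 10 wholly below the control libraries, against 18.2% and 25.7% of all genes tested, and with PRP 6 and 9, against 19.0% and 27.8%. The median log2 difference of the cytosolic genes was -0.13 with plasma and -0.08 with PRP, that of the mitochondrial genes 0.10 and 0.05, and that of all genes tested -0.05 and -0.06. The difference between the cytosolic and the mitochondrial group was not tested.

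**Figure D1:**
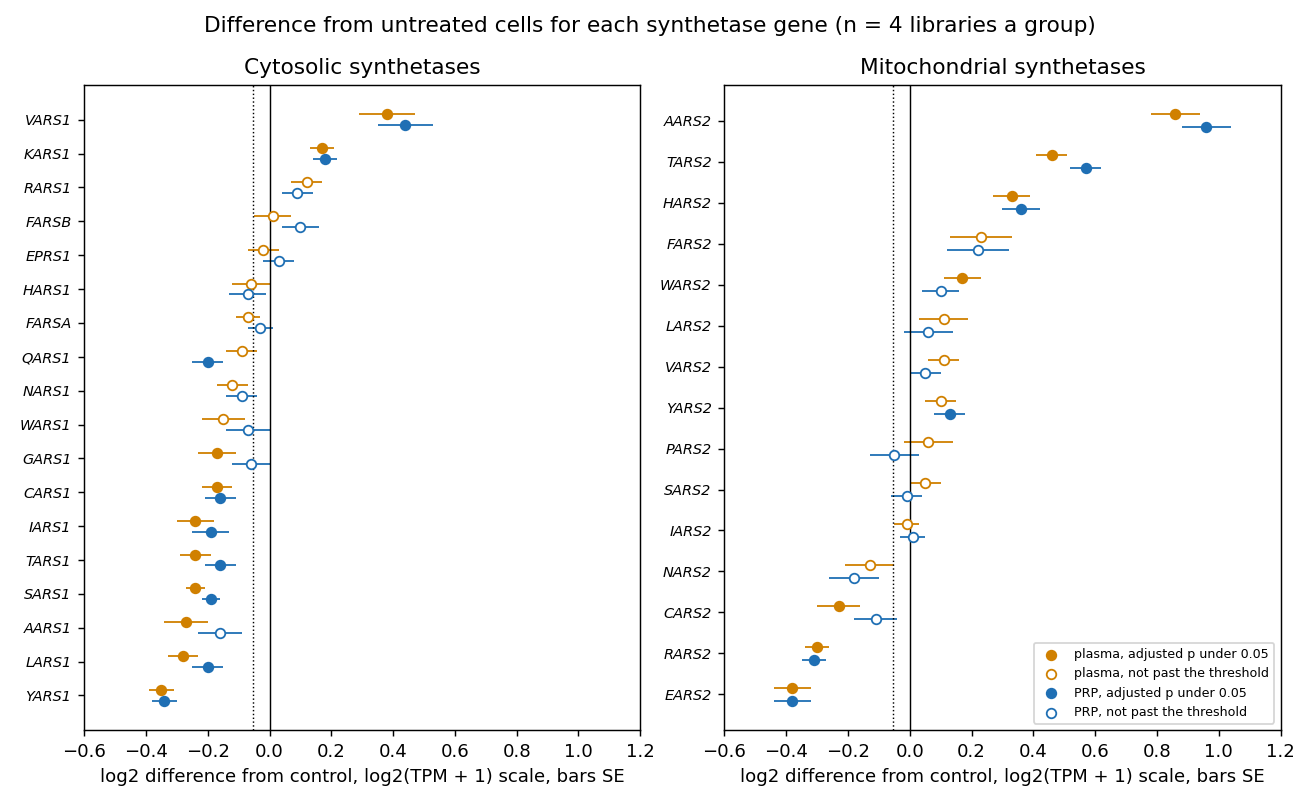
Log2 difference in TPM + 1 from control for each of the 33 synthetase genes, cytosolic and mitochondrial genes apart, with plasma and with PRP. Points are estimates, bars are standard errors, filled points have an adjusted p under 0.05, and AARS2 and TARS2 lie farthest above 0. The dotted line is the mean of the medians of all genes tested with plasma (-0.05) and with PRP (-0.06).

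The summed level of the 18 cytosolic genes was 1744 to 1828 TPM in the control libraries, 1593 to 1704 TPM with plasma and 1611 to 1738 TPM with PRP. Every treated library lay below every control library, and the group means were 1795 ± 39.2, 1656 ± 55.1 and 1691 ± 55.6 TPM. The 15 mitochondrial genes summed to 376.8 ± 5.44 TPM in control, 377 ± 5.40 TPM with plasma and 379.6 ± 9.33 TPM with PRP, with overlapping ranges. Within the cytosolic group FARSB was lowest in control, at 14.6 TPM, and WARS1 highest, at 226 TPM. Within the mitochondrial group AARS2 was lowest, at 3.47 TPM, and IARS2 highest, at 72.7 TPM.

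Among the cytosolic genes, 6 fell with both treatments: YARS1, SARS1, LARS1, TARS1, IARS1 and CARS1. YARS1 (chr1:32775239-32817358, RefSeq GRCh38.p14, as for all gene positions here), the tyrosine enzyme, was at 124.3, 122.6, 120.6 and 119.6 TPM in control, 96.3, 100.8, 89.9 and 94.4 TPM with plasma, and 95.9, 95.7, 100.6 and 91.6 TPM with PRP. All 8 treated libraries were lower than all 4 control libraries, by a log2 difference of -0.35 ± 0.04 with plasma (adjusted p = 9.07e-06, limma) and -0.34 ± 0.04 (adjusted p = 9.02e-06) with PRP. SARS1 (chr1:109213893-109238182), the serine enzyme, was at 171.7, 161.0, 169.8 and 166.7 TPM in control, 142.2, 141.2, 142.1 and 142.0 TPM with plasma, and 145.9, 146.2, 148.6 and 146.0 TPM with PRP. Its treated libraries did not overlap control, and the plasma libraries lay within a narrow band. The log2 difference of SARS1 was -0.24 ± 0.03 with plasma (adjusted p = 1.72e-05) and -0.19 ± 0.03 (adjusted p = 9.99e-05) with PRP. LARS1 (chr5:146113034-146182650), the leucine enzyme and also a leucine sensor of the mTORC1 pathway, was at 60.6, 60.3, 58.0 and 59.5 TPM in control, 52.2, 49.8, 46.8 and 47.5 TPM with plasma, and 55.8, 51.8, 52.1 and 47.8 TPM with PRP. Every treated library was again below control, with log2 differences of -0.28 ± 0.05 (adjusted p = 0.000373) and -0.20 ± 0.05 (adjusted p = 0.0036). YARS1, SARS1 and LARS1 were picked for values by library after their results were seen.

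TARS1, IARS1 and CARS1 fell with both treatments as well, and 3 further cytosolic genes were called lower with 1 treatment. TARS1, for threonine, was at 128 ± 6.03, 108 ± 6.74 and 115 ± 3.62 TPM in control, plasma and PRP, and IARS1, for isoleucine, at 82.7 ± 1.5, 70.1 ± 6.51 and 72.2 ± 4.43 TPM. CARS1, for cysteine, was at 54.6 ± 1.42, 48.5 ± 3.13 and 48.7 ± 2.85 TPM, a log2 difference of -0.17 with plasma (adjusted p = 0.0155) and -0.16 (adjusted p = 0.018) with PRP. In these 3 genes too, no treated library reached the lowest control library. AARS1, for alanine, and GARS1, for glycine, fell with plasma, AARS1 from 71.2 ± 3.72 to 59.0 ± 6.06 TPM (log2 difference -0.27, adjusted p = 0.00754) and GARS1 from 118 ± 3.06 to 105 ± 6.04 TPM (-0.17, adjusted p = 0.0177). With PRP their levels were 63.9 ± 5.50 and 114 ± 9.05 TPM, with adjusted p = 0.0883 and 0.38. QARS1, for glutamine, was called lower with PRP, from 209 ± 14.4 to 181.5 ± 7.47 TPM (-0.20, adjusted p = 0.00468), while with plasma it was at 196 ± 10.9 TPM (-0.09, adjusted p = 0.163). No member was called between PRP and plasma, so these calls do not show that AARS1, GARS1 or QARS1 responded to 1 treatment alone. Several of the calls rested on single libraries: GARS1 with plasma had an adjusted p of 0.0508 without plasma replicate 3 and 0.0582 without plasma replicate 4, CARS1 with plasma 0.0535 without plasma replicate 4, and CARS1 with PRP 0.06 without PRP replicate 3. AARS1 with PRP passed as lower without PRP replicate 1, at an adjusted p of 0.0377. It also passed in a fit with a term for the replicate number, at 0.00642.

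The promoters of these genes were searched for TGATGNAA on either strand, the letters shared by the composite C/EBP and ATF sites through which ATF4 acts, and the windows that hold it are shown for the synthetases beside those for the amino acid response genes. RefSeq promoters (GRCh38.p14) of 300 bases, from 250 before to 50 after the start site, were matched for 28 of the 33 members. TGATGNAA was in 6 of 15 cytosolic promoters (40%), 1 of 13 mitochondrial promoters (7.69%), 2.67% of those of the tested genes that matched and 4.46% of all 27305 genes' promoters. Of the cytosolic genes called lower with plasma it was in 5 of 6 with a promoter, AARS1, CARS1, GARS1, IARS1 and TARS1, and of the other cytosolic genes in 1 of 9, NARS1. Split by the PRP calls, it was in 3 of 5 lower genes with a promoter (CARS1, IARS1 and TARS1) and in 3 of 10 others (AARS1, GARS1 and NARS1). LARS1 and YARS1, both lower, are among the members with no matched promoter. In the amino acid response list it was in 4 of 15 promoters (26.7%), those of CHAC1, ASNS, CEBPG and ATF3, the last of which was not called. The windows below run 5′ to 3′ on the strand given, each with 11 bases on either side of the match, which is in capitals.
AARS1, chr16:70289675-70289704, plus strand: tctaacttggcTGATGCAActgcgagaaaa
CARS1, chr11:3057407-3057436, plus strand: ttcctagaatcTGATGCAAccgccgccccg
GARS1, chr7:30594834-30594863, minus strand: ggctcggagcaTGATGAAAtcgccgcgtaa
IARS1, chr9:92293692-92293721, plus strand: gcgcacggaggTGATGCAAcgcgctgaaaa
NARS1, chr18:57621804-57621833, minus strand: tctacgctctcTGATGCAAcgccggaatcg
TARS1, chr5:33440956-33440985, minus strand: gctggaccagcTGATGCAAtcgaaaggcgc
YARS2, chr12:32756076-32756105, minus strand: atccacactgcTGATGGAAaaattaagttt
CHAC1, chr15:40953251-40953280, minus strand: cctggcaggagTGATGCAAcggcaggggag
ASNS, chr7:97872458-97872487, minus strand: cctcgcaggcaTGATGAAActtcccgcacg
CEBPG, chr19:33374060-33374089, plus strand: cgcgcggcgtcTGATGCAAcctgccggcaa
ATF3, chr1:212565205-212565234, plus strand: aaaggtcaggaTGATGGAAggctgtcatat
AARS1, CARS1, IARS1, NARS1 and TARS1 carry the letters TGATGCAA, as CHAC1 and CEBPG do, and GARS1 carries TGATGAAA, as ASNS does, while YARS2 and ATF3 carry TGATGGAA. The centre of the window lay 184 bases upstream of the start site in AARS1, 30 upstream in GARS1, 10 upstream in IARS1, 2 downstream in CARS1, 6 downstream in TARS1 and 18 downstream in NARS1. NARS1, which holds the letters and charges asparagine, was not called: 88.1 ± 2.70, 81.3 ± 5.93 and 82.9 ± 4.78 TPM in control, plasma and PRP (adjusted p = 0.0894 and 0.183). CACGTG, the E-box bound by MYC among others, was in 1 of 15 cytosolic promoters (IARS1), 2 of 13 mitochondrial ones (CARS2 and EARS2) and 12.6% of those of tested genes. In IARS1, the member with both, the matches do not overlap. The SARS1 window holds neither motif. A match of letters is a description and shows no binding.

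VARS1 and KARS1 were the 2 cytosolic genes that rose, both with plasma and with PRP. VARS1 (chr6:31777518-31795752), the valine enzyme, which associates with elongation factor 1, was at 42.5, 46.8, 46.4 and 44.7 TPM in control, 62.1, 64.9, 53.7 and 56.1 TPM with plasma, and 68.5, 68.1, 61.7 and 49.9 TPM with PRP. All treated libraries exceeded control, although PRP replicate 4 stood only slightly above it. The log2 difference was 0.38 ± 0.09 with plasma (adjusted p = 0.00265) and 0.44 ± 0.09 (adjusted p = 0.000796) with PRP. KARS1 (chr16:75627724-75647665), the lysine enzyme of both compartments, was at 128.9, 124.6, 141.8 and 132.7 TPM in control, 142.1, 153.6, 154.7 and 142.6 TPM with plasma, and 147.0, 148.7, 152.5 and 149.9 TPM with PRP. The highest control library and the lowest plasma library of KARS1 were nearly equal. Its log2 difference was 0.17 ± 0.04 (adjusted p = 0.00546) and 0.18 ± 0.04 (adjusted p = 0.00293). Exons of KARS1 share 176 bases with TERF2IP on the opposite strand in GENCODE 29, and TERF2IP moved the other way, from 41.8 TPM in control to 34.5 TPM with plasma and 33.6 TPM with PRP.

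The remaining 7 cytosolic genes were called with neither treatment: EPRS1, FARSA, FARSB, HARS1, NARS1, RARS1 and WARS1. EPRS1, a fused enzyme for glutamate and proline, was at 46.7 ± 0.418, 46.1 ± 2.61 and 47.9 ± 2.80 TPM in control, plasma and PRP. FARSA and FARSB encode the α and β subunits of the phenylalanine enzyme and stood at unequal levels, 92.3 ± 2.89 against 14.6 ± 1.15 TPM in control. RARS1, for arginine, was at 72.9 ± 5.39, 79.4 ± 2.55 and 77.6 ± 2.68 TPM, and its adjusted p with plasma was 0.0521. RARS1 passed as higher with both treatments on estimated reads (adjusted p = 0.00739 and 0.0194) and with median centring (0.0224 and 0.0405), and with plasma also without control replicate 3 (0.00813). WARS1, for tryptophan, is known to be induced by interferon gamma and was at 226 ± 23.0, 203 ± 16.4 and 214 ± 13.1 TPM (adjusted p = 0.112 and 0.413). WARS1 with plasma was called lower without control replicate 2, at an adjusted p of 0.0378. In a list of 12 other interferon gamma inducible genes, of which 10 were tested, the tally was 7 higher and 2 lower with plasma, and 6 higher and 1 lower with PRP. The shares of all genes tested were 20.3% higher and 29.0% lower with plasma, and 21.7% and 31.5% with PRP. IRF1 rose from 45.1 ± 4.08 to 69.7 ± 5.95 TPM with plasma (adjusted p = 1.67e-05) and GBP1 from 27.2 ± 2.59 to 40.3 ± 3.19 TPM (adjusted p = 3.73e-05).

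In the cytosol EPRS1, IARS1, LARS1, QARS1, RARS1 and KARS1, with enzymes not measured here by name, sit in 1 multisynthetase complex. Among the 6, 1 was called higher and 2 lower with plasma, and 1 higher and 3 lower with PRP. Of all genes tested, 20.3% were called higher and 29.0% lower with plasma, and 21.7% and 31.5% with PRP. Among the 12 cytosolic genes outside the complex, the tally was 1 higher and 6 lower with plasma, and 1 higher and 4 lower with PRP. With those shares of all genes, calls in both directions are not in themselves a result about the complex. Members of the same assembly moved in opposite directions, KARS1 up and LARS1 down. The complex's scaffolds did so as well: AIMP1 rose from 66.4 ± 2.19 TPM to 75.0 ± 2.18 with plasma (adjusted p = 0.00287), and to 76.0 ± 3.29 with PRP (adjusted p = 0.00125), and EEF1E1 fell from 43.0 ± 2.76 to 34.8 ± 4.04 (adjusted p = 0.00487) and 36.7 ± 2.43 TPM (adjusted p = 0.025). AIMP2 was at 92.9 ± 5.84, 89.6 ± 5.01 and 94.1 ± 6.87 TPM and was not called. Members were also grouped by catalytic fold, class I or class II, and the same shares of all genes stand beside these tallies. Among the cytosolic genes, 4 of 9 of class I and 4 of 9 of class II fell with plasma, and 1 of each class rose. With PRP, 5 of 9 of class I and 2 of 9 of class II fell, and 1 of each class rose. The fused EPRS1 was counted in class I, by its glutamate part. In the mitochondrial group, 3 of 7 of class II rose with either treatment and 0 fell, while the 8 of class I gave 1 higher and 3 lower with plasma, and 1 higher and 2 lower with PRP.

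AARS2 and TARS2 showed the 2 largest log2 differences among the 33 members with either treatment. AARS2 (chr6:44298731-44313347), which charges mitochondrial alanine transfer RNA, was at 3.49, 4.07, 3.28 and 3.04 TPM in control, 7.63, 6.75, 7.01 and 7.10 TPM with plasma, and 7.79, 8.51, 7.26 and 7.08 TPM with PRP. The lowest treated library was well above the highest control library, and the ratio of mean TPM was 2.05 with plasma and 2.21 with PRP. On the log2(TPM + 1) scale the difference of AARS2 was 0.86 ± 0.08 (adjusted p = 1.99e-06) and 0.96 ± 0.08 (adjusted p = 6.12e-07), and on estimated reads, which have no added constant of that size, 1.11 and 1.22. AARS2 shares 235 exon bases with TMEM151B on the opposite strand, which had at most 0.133 TPM in any library. TARS2 (chr1:150487419-150507602), the mitochondrial threonine enzyme, was at 14.1, 14.3, 14.7 and 14.3 TPM in control, 19.5, 19.7, 20.02 and 21.1 TPM with plasma, and 21.4, 22.2, 22.3 and 21.4 TPM with PRP. The control libraries of TARS2 were tightly grouped and far below the others, and the PRP libraries all lay above the plasma libraries. The ratio of means was 1.40 with plasma (log2 difference 0.46 ± 0.05, adjusted p = 2.57e-06) and 1.52 with PRP (0.57 ± 0.05, adjusted p = 2.5e-07). TARS2 differed by 0.11 on the log2 scale between PRP and plasma, with an adjusted p of 0.535.

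HARS2, the mitochondrial histidine enzyme, and HARS1, its cytosolic partner, lie head to head on chromosome 5, HARS1 at chr5:140673905-140691370 and HARS2 at chr5:140691455-140699305, with 84 bases between their RefSeq starts. HARS2 was at 17.5, 17.9, 14.8 and 16.2 TPM in control, 20.3, 20.7, 21.7 and 21.6 TPM with plasma, and 22.6, 21.2, 20.8 and 21.6 TPM with PRP. It rose without overlap, by 0.33 ± 0.06 with plasma (adjusted p = 0.000463) and 0.36 ± 0.06 (adjusted p = 0.000187) with PRP on the log2 scale. HARS1 was at 58.4, 61.5, 69.1 and 71.5 TPM in control, 61.8, 67.1, 60.5 and 59.7 TPM with plasma, and 63.7, 61.8, 62.4 and 60.1 TPM with PRP. HARS1 overlapped in all groups and was not called, at log2 differences of -0.06 (adjusted p = 0.427) and -0.07 (adjusted p = 0.38). The control libraries numbered 3 and 4 were the highest for HARS1 and the lowest for HARS2. In GENCODE 29 the exons of HARS1 and HARS2 share 437 bases on opposite strands, and the sources used here do not say if strand was used in counting, so reads in that stretch may have been counted for either gene. HARS2 also shares 152 exon bases on the same strand with ZMAT2, which rose with plasma, from 92.2 ± 1.64 to 99.4 ± 4.45 TPM (adjusted p = 0.0416). The part of these shared bases in the HARS2 values was not tested.

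WARS2 and YARS2 were each called higher with 1 treatment. WARS2, for mitochondrial tryptophan, was at 11.2 ± 0.562 TPM in control, 12.7 ± 0.676 with plasma (log2 difference 0.17, adjusted p = 0.0223) and 12.1 ± 0.238 with PRP (0.10, adjusted p = 0.154). The plasma call of WARS2 was lost without control replicate 3 (adjusted p = 0.0662) or plasma replicate 3 (adjusted p = 0.0746). YARS2, for mitochondrial tyrosine, was at 31.8 ± 0.676, 34.2 ± 1.73 and 35.04 ± 2.38 TPM, with a log2 difference of 0.10 with plasma (adjusted p = 0.136) and 0.13 (adjusted p = 0.0469) with PRP. On estimated reads both genes were called higher with both treatments: WARS2 with PRP had an adjusted p of 0.0165 and YARS2 with plasma 0.0112, and with median centring these were 0.0345 and 0.01. The PRP call of YARS2 on TPM was lost in 11 of 20 alternative analyses, with an adjusted p of up to 0.248, among them those without any single control library, without plasma replicate 1 or 4, and without PRP replicate 1 or 2.

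**Figure D2:**
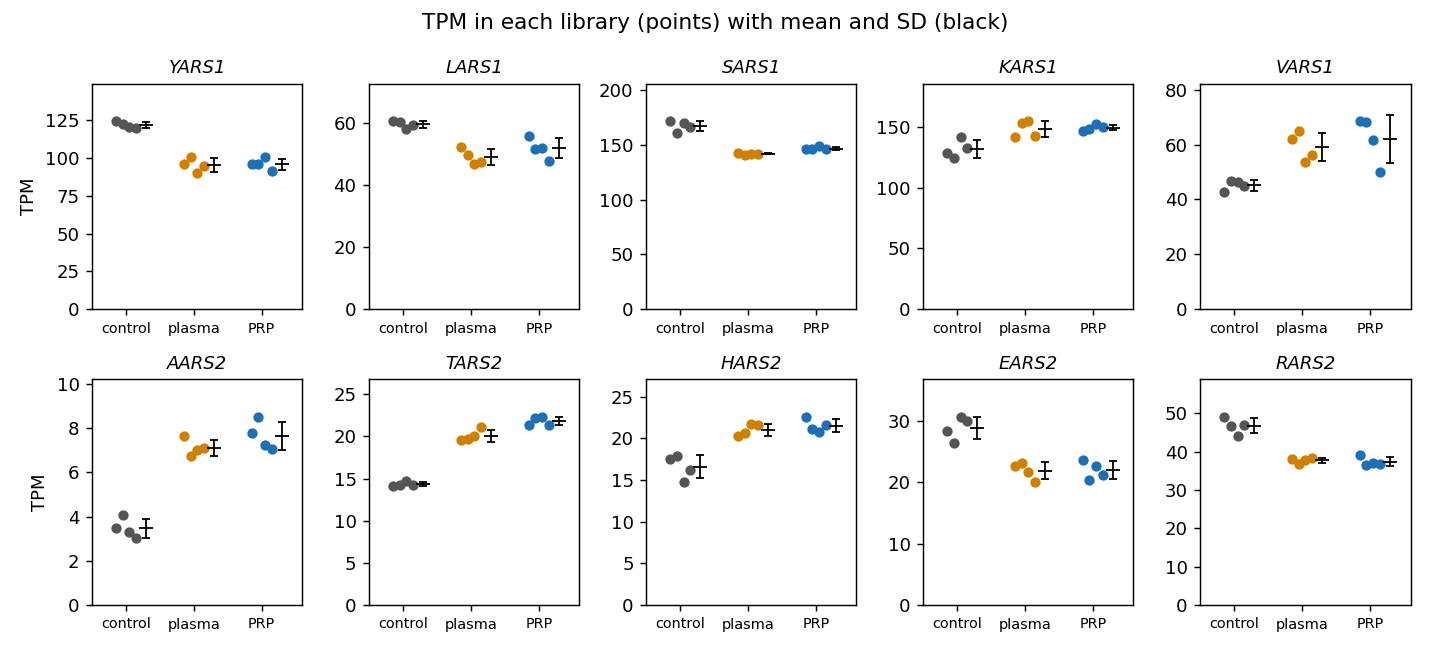
TPM in each library for the synthetase genes shown by library, 1 panel per gene, with control, plasma and PRP on the horizontal axis. Coloured points are libraries and black bars are group means with SD; in AARS2, TARS2, HARS2 and VARS1 all treated libraries lie above control, and in YARS1, LARS1, SARS1, EARS2 and RARS2 all lie below.

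Of the mitochondrial genes, EARS2 and RARS2 fell with both treatments and CARS2 with plasma. EARS2 (chr16:23520754-23557375), which charges glutamate to the mitochondrial glutamate transfer RNA and to the glutamine transfer RNA before amidation, was at 28.4, 26.5, 30.7 and 29.98 TPM in control, 22.7, 23.2, 21.8 and 20.1 TPM with plasma, and 23.7, 20.4, 22.6 and 21.2 TPM with PRP. No treated library reached control, and the log2 difference was -0.38 ± 0.06 with plasma (adjusted p = 0.000238) and -0.38 ± 0.06 (adjusted p = 0.000213) with PRP. RARS2 (chr6:87513938-87589987), the mitochondrial arginine enzyme, was at 49.1, 46.7, 44.2 and 47.1 TPM in control, 38.1, 36.9, 37.9 and 38.3 TPM with plasma, and 39.3, 36.5, 37.1 and 36.8 TPM with PRP. The treated libraries of RARS2 lay close together and below control, with log2 differences of -0.30 ± 0.04 (adjusted p = 5.63e-05) and -0.31 ± 0.04 (adjusted p = 3e-05). CARS2, for mitochondrial cysteine, was at 38.1, 47.4, 47.6 and 50.1 TPM in control, 38.3, 40.5, 39.8 and 36.1 TPM with plasma, and 41.9, 41.4, 45.3 and 39.6 TPM with PRP. Control replicate 1 of CARS2 lay apart from the other control libraries and among the treated ones. Its log2 difference with plasma was -0.23 ± 0.07 (adjusted p = 0.0183), and on estimated reads -0.11 (adjusted p = 0.206). ING1 on the opposite strand, which shares 326 exon bases with CARS2, was lower too, at 14.2 ± 1.0, 12.3 ± 0.67 and 11.6 ± 0.753 TPM (adjusted p = 0.0323 and 0.00424). The plasma call of CARS2 was also lost without control replicate 4 (adjusted p = 0.0604) or plasma replicate 4 (adjusted p = 0.0569), while without control replicate 1 CARS2 was called lower with PRP too, at -0.20 (adjusted p = 0.00883).

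Called with neither treatment were 7 mitochondrial genes, FARS2, IARS2, LARS2, NARS2, PARS2, SARS2 and VARS2. IARS2, the isoleucine enzyme and the most abundant of the group, was nearly level at 72.7 ± 1.53, 72.3 ± 3.01 and 73.3 ± 1.73 TPM. FARS2, a single-chain phenylalanine enzyme, was at 5.76 ± 0.744, 6.94 ± 0.759 and 6.88 ± 0.88 TPM, with adjusted p = 0.0694 and 0.08. FARS2 passed as higher with both treatments on estimated reads (adjusted p = 0.0107 and 0.0243) and with median centring (0.0148 and 0.015). With plasma it also passed without control replicate 1 (adjusted p = 0.0457) or PRP replicate 1 (adjusted p = 0.0489), a library of neither group compared, which enters through the shared estimate of spread. VARS2, the valine enzyme, was at 44.3 ± 2.39, 48.1 ± 2.21 and 46.0 ± 1.30 TPM (adjusted p = 0.0606 with plasma), and passed without control replicate 3 (adjusted p = 0.0394) or plasma replicate 4 (adjusted p = 0.0268). VARS2 shares 1858 exon bases with GTF2H4 on the same strand and SARS2 shares 1492 with AC011455.2 on the same strand, so the split of their reads is uncertain. In all, 18 of the 33 members share exon bases with another gene in GENCODE 29. NARS2, for asparagine, was at 9.05 ± 1.06, 8.18 ± 0.754 and 7.86 ± 0.403 TPM, and was called lower with PRP without control replicate 1 (adjusted p = 0.0453). LARS2, for leucine, was at 8.01 ± 0.546, 8.68 ± 0.113 and 8.44 ± 1.14 TPM, and PARS2, for proline, at 9.27 ± 0.958, 9.69 ± 0.558 and 8.89 ± 0.721 TPM.

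For 12 amino acids a cytosolic and a mitochondrial gene named alike apart from the final 1 or 2 were listed. Partners were called in opposite directions only for threonine with both treatments, alanine with plasma and tyrosine with PRP. The YARS2 call behind the tyrosine pair was lost in many alternative analyses. For cysteine with plasma both partners were called lower. Glutamate, proline and phenylalanine also had genes for both compartments but were left out of the pairs. On the log2 scale EPRS1 differed by -0.02 with plasma and 0.03 with PRP. EARS2 differed by -0.38 with both, and PARS2 by 0.06 and -0.05. FARSA differed by -0.07 and -0.03, FARSB by 0.01 and 0.10, and FARS2 by 0.23 and 0.22. The cytosolic log2 difference was the lower of the pair in 8 of 12 with plasma and in 9 of 12 with PRP. Over the 12 pairs, the median of the cytosolic minus the mitochondrial log2 difference was -0.30 with plasma and -0.20 with PRP. For alanine, the TPM of AARS1 divided by that of AARS2 was 20.7 ± 1.71 in control, 8.29 ± 0.794 with plasma and 8.35 ± 0.522 with PRP. The threonine ratio, TARS1 over TARS2, was 8.96 ± 0.399, 5.40 ± 0.493 and 5.26 ± 0.124. In both pairs the treated ratios did not overlap control, with the mitochondrial gene higher and the cytosolic gene lower in mean TPM, although AARS1 was not called with PRP in the main test. For tyrosine the ratio was 3.83 ± 0.0977, 2.79 ± 0.0331 and 2.75 ± 0.204, and for histidine 3.97 ± 0.673, 2.96 ± 0.231 and 2.88 ± 0.0976. Arginine and valine ran the other way. RARS1 over RARS2 was 1.56 ± 0.183 in control, 2.10 ± 0.0806 with plasma and 2.08 ± 0.0789 with PRP. VARS1 over VARS2 was 1.02 ± 0.0461, 1.23 ± 0.109 and 1.349 ± 0.187, without overlap of control for PRP but with 1 plasma library inside the control range. The arginine ratio rested on the lower RARS2, since RARS1 was not called. The differences between partners are descriptions and were not tested.

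**Figure D3:**
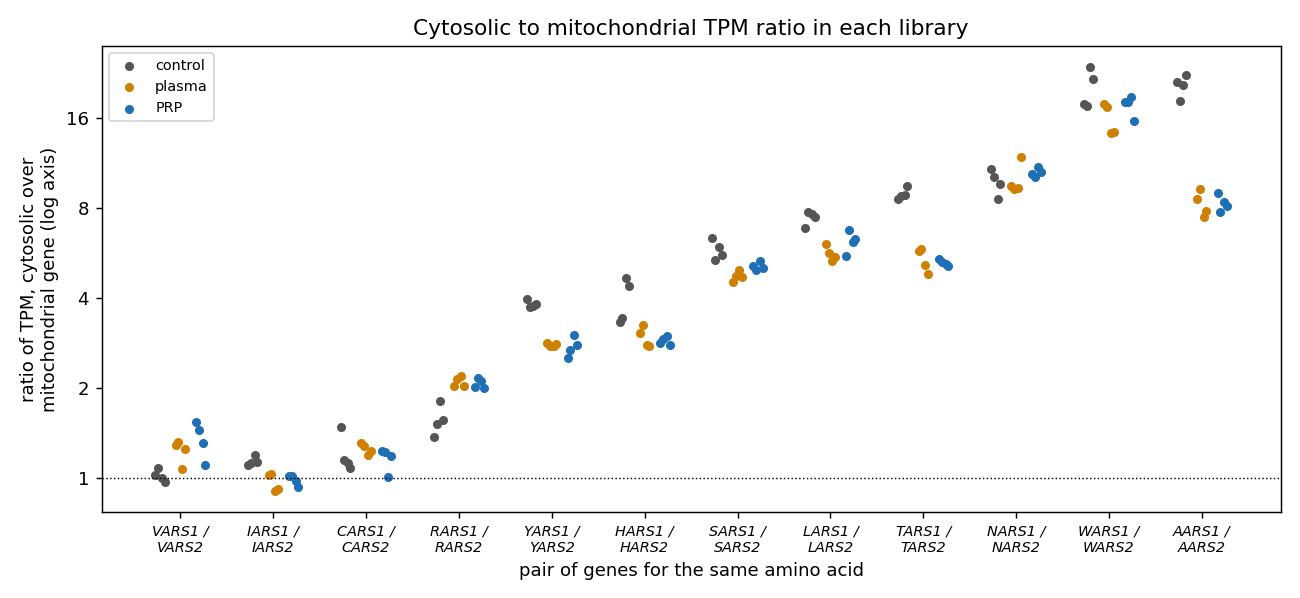
TPM of the cytosolic gene divided by TPM of the mitochondrial gene for the 12 amino acids with both partners, on a log axis, by library. Points are libraries of control, plasma and PRP; the alanine ratio lies near 20.7 in control and near 8.3 in both treated groups, and the arginine ratio is higher in treated libraries.

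Because TPM is relative to all other genes of a library and depends on the estimated length, the same comparisons were made on estimated reads scaled by the median ratio across genes and tested with limma's voom. Over all genes tested, the share of calls that were lower was 58.8% on TPM and 49.1% on reads with plasma, and 59.2% and 49.6% with PRP. The cytosolic tally on reads was 3 higher and 7 lower with plasma (background 28.8% higher and 27.8% lower) and 5 higher and 5 lower with PRP (background 30.4% and 29.9%). The mitochondrial tally on reads was 7 higher and 2 lower with plasma and 7 higher and 2 lower with PRP. With each library's log2 TPM centred on its median, the cytosolic tally was 3 higher and 8 lower with plasma and 3 higher and 5 lower with PRP, the mitochondrial tally 7 and 2, and 6 and 2, and the lower share of all calls 45.9% and 46.0%. After centring, 3309 of the 12517 genes tested were called higher and 2803 lower with plasma, and 3534 and 3016 with PRP. Thus with PRP the excess of lower over higher cytosolic genes depended on the scale. On both scales and with both treatments, the cytosolic YARS1, SARS1, LARS1 and IARS1 and the mitochondrial EARS2 and RARS2 were called lower. VARS1, KARS1, AARS2, TARS2 and HARS2 were called higher on both scales and with both treatments. CARS1 was called on neither treatment on reads, at -0.08 (adjusted p = 0.12, voom) and -0.07 (adjusted p = 0.138), and TARS1 with PRP was at -0.09 (adjusted p = 0.0935).

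**Figure D4:**
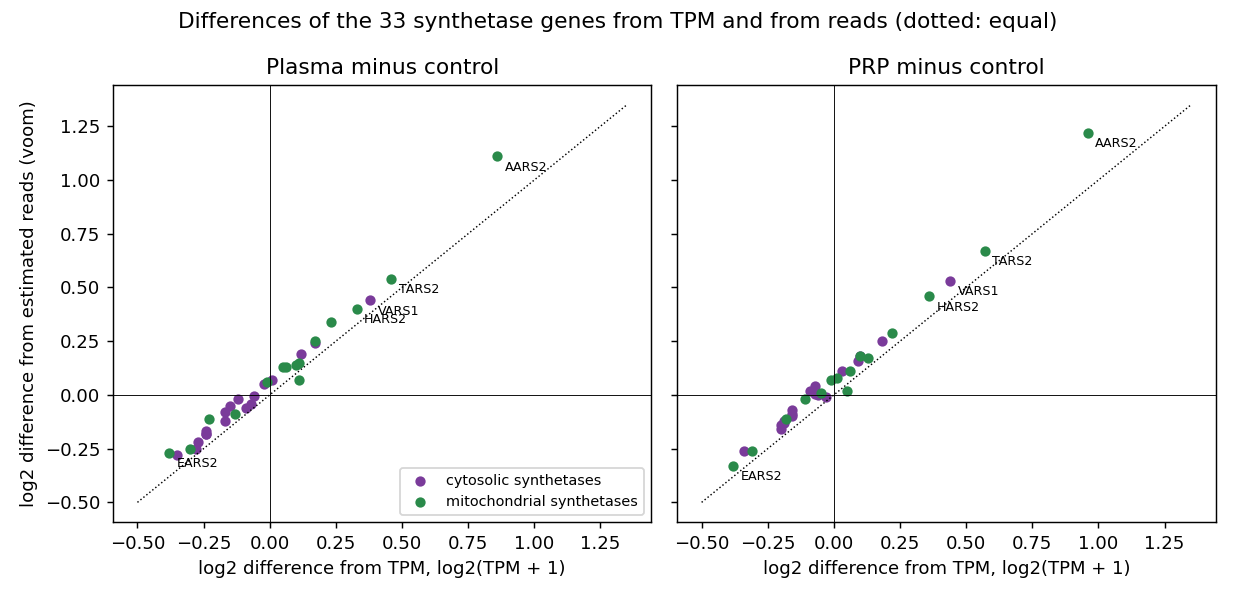
Log2 difference from control on estimated reads (vertical axis) against that on TPM + 1 (horizontal axis) for the 33 synthetase genes, with plasma on the left and PRP on the right. Each point is a gene, the line marks equal values, and most points lie slightly above it; AARS2 is the point farthest from 0 in both panels.

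The comparison between PRP and plasma asks whether the synthetase genes differed between these preparations. The part of platelets in any difference was not tested. None of the 33 members was called by limma, with 2 at an unadjusted p under 0.05 (TARS2 and QARS1) and none by voom. Of all genes tested 0.0639% were called by limma, 0.0879% were called higher and 0.00799% lower by voom, and 7.98% had an unadjusted p under 0.05. The log2 differences ran from -0.11 to 0.12, and the smallest adjusted p was 0.535. TARS2 and SARS1 were higher in all PRP than in all plasma libraries, 2 of 33, where 2.63% of all genes tested showed this, and none was lower in all, against 2.59%. The plasma and PRP comparisons with control share the same 4 control libraries, so likeness between them is not independent.

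Genes that use or serve charged transfer RNA were taken from lists chosen with the members. Beside their tallies stand the shares of all genes tested, 20.3% higher and 29.0% lower with plasma, and 21.7% and 31.5% with PRP. On estimated reads these shares were 28.8% and 27.8% with plasma, and 30.4% and 29.9% with PRP. Of 5 tested cytosolic elongation factor genes, 4 fell with each treatment on TPM and 2 on estimated reads, and EEF2, which moves the ribosome along the message, went from 2624 ± 215 TPM to 2209 ± 58.8 with plasma (adjusted p = 0.000964) and 2092 ± 62.8 (adjusted p = 8.74e-05) with PRP. EEF1A1, which delivers charged transfer RNA, fell by 0.17 on the log2 scale with plasma (adjusted p = 0.00409) and 0.22 (adjusted p = 0.000655) with PRP. Of 5 mitochondrial elongation factor genes 1 rose and 2 fell with each treatment: TSFM, the exchange factor of the mitochondrial tRNA carrier, rose from 19.5 ± 4.12 to 33.1 ± 3.20 and 34.2 ± 5.16 TPM, and GFM2, a ribosome recycling factor, fell from 59.4 ± 2.30 to 48.9 ± 0.889 and 49.0 ± 2.79 TPM. Among 16 genes of transfer RNA end processing and export, the tally was 5 higher and 2 lower with plasma, and 7 higher and 2 lower with PRP, and PRORP, the nuclease of mitochondrial transfer RNA 5′ ends, fell from 45.5 ± 4.04 to 31.3 ± 2.67 and 30.4 ± 1.87 TPM. A list of 5 genes held AARSD1, DTD1 and DTD2, for proofreading, and PTRHD1 and PTRH2, of the peptidyl-tRNA hydrolase family. With plasma 1 was higher (PTRHD1) and 1 lower (PTRH2), and with PRP 4 were higher. On reads 3 were higher and 0 lower with plasma, and 4 and 0 with PRP. Of 4 genes for amidation and formylation of mitochondrial transfer RNA, 1 fell with plasma and 3 with PRP on TPM (0 and 1 on reads), GATC, a subunit of the amidotransferase that acts after EARS2, from 20.1 ± 1.15 to 17.6 ± 1.08 and 17.3 ± 1.09 TPM. In the selenocysteine pathway of 5 genes, EEFSEC, its dedicated elongation factor, rose from 4.92 ± 0.564 to 11.3 ± 1.54 TPM with plasma (log2 difference 1.05, adjusted p = 6.76e-07) and 13.3 ± 0.257 TPM with PRP (1.28, adjusted p = 9.24e-08), and SECISBP2 and SEPHS2 fell.

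Of the 16 genes in the amino acid response list, which centres on GCN2 and ATF4, 9 fell and 2 rose with plasma, with a median log2 difference of -0.50, and 11 fell and 3 rose with PRP, with a median of -0.41. Over all genes tested, 29.0% fell and 20.3% rose with plasma (median -0.05), and 31.5% fell and 21.7% rose with PRP (median -0.06). CHAC1, which degrades glutathione, fell from 21.2 ± 2.81 to 5.26 ± 1.2 TPM with plasma (adjusted p = 1.73e-07) and 6.98 ± 1.02 TPM (adjusted p = 9.91e-07) with PRP. ASNS, asparagine synthetase, fell from 50.6 ± 5.06 to 24.9 ± 2.01 TPM (adjusted p = 2.29e-07) and 26.0 ± 1.81 TPM (adjusted p = 3.25e-07). PPP1R15A, which directs the removal of the phosphate that GCN2 places on its target, fell from 46.7 ± 1.61 to 30.04 ± 0.661 TPM (adjusted p = 6.32e-07) and 28.1 ± 2.18 TPM (adjusted p = 1.37e-07). CEBPG, a partner of ATF4, fell from 41.8 ± 0.99 to 28.2 ± 1.81 and 28.9 ± 0.832 TPM. On the log2 scale the differences of CHAC1 were -1.84 and -1.48 and those of ASNS -1.0 and -0.93, and the largest fall among the synthetases, that of EARS2, was -0.38. Earlier results of these data already showed lower amino acid response genes, so the list is no independent support for the lower synthetases.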

How the data were processed

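Per the labels, polyadenylated RNA was captured from 12 libraries of PE/CA-PJ41 cells (3 groups, n = 4 each). Salmon and hg38 are named per the submitters' processing notes; versions, transcript set and strand use are not given in the sources used here. Per the file headers, the authors deposited for each gene its length, effective length, TPM and estimated count of reads, written with decimal commas, 1 library per file. Log2(TPM + 1) was tested with limma-trend (limma 3.58.1, R 4.3.3) for the 12517 genes that reached 1 TPM in 4 or more libraries, 1 term per group, 9 residual degrees of freedom, two-sided, with Benjamini-Hochberg adjustment at 0.05. The estimated counts, which were registered without a count unit, were not used for the main test. Voom on them was an alternative, as were a pseudocount of 0.1, filters, centring, a replicate block and leaving out libraries. The functions were tested on simulated data. No replicate pair agreed within counting noise (chi-square per degree of freedom 3.85 to 32.7 over 18 pairs), so none was treated as 1 library deposited again; this does not show separate cultures. Members and lists were chosen with earlier results of these data known. Values by library were given for members called at an absolute log2 difference of at least 0.5, called against their group's majority, or HARS1 and HARS2, with YARS1, SARS1 and LARS1 added after their values were seen, and other lists by up to 4 genes of smallest adjusted p. Promoters and gene positions are from RefSeq (GRCh38.p14), and exon overlaps from GENCODE 29. Some genes looked up beside the members are not reported here.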

Additional observations from a re-analysis of the deposited data

Results flagged for a closer look

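Over 99 sets of 4 libraries (33 members in 3 groups), 3 had a library far from the other 3 by Dixon's criterion, where chance would give about 4.95 on average. SARS1 in PRP replicate 3 was at 148.6 TPM, and the other PRP libraries were at 145.9 to 146.2 TPM. WARS1 in PRP replicate 4 was at 194.2 TPM against 218.4 to 222.3 TPM in the others. FARS2 in PRP replicate 1 was at 8.20 TPM against 6.37 to 6.48 TPM in the others.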

How the results depend on the processing

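Of the members called with plasma, 13 of 17 were called in all 20 alternatives (exceptions CARS1, CARS2, GARS1 and WARS2), and with PRP 12 of 15 (exceptions CARS1, TARS1 and YARS2); none of them changed direction. Replicate numbers were shared by the groups, and same-numbered libraries deviated together weakly, but more than others did. Their correlations were -0.067 to 0.304 (median 0.096, 5 of 12 over 0.1), with the best match to the same number in 14 of 24. Between different numbers they were -0.22 to 0.203 (median -0.043, 5 of 36 over 0.1). In every group, replicates 3 and 4 were the closest pair (chi-square per degree of freedom 3.85 in control, 4.61 in plasma, 7.31 in PRP). Replicate 1 lay farthest from those 2 in every group. The main fit has no term for replicate number, and the source of this likeness was not tested. With the replicate block, cytosolic calls were 8 lower to 3 higher for plasma, and 8 to 2 for PRP. Mitochondrial calls were then 3 lower to 6 higher for plasma, and 2 to 5 for PRP. Of the 12517 genes tested, 3910 were lower and 2690 higher for plasma in that fit, and 4252 and 2853 for PRP. Of all genes, 9 differed between PRP and plasma in that fit. AARS1 with PRP (adjusted p = 0.00642), RARS1 (0.0353) and VARS2 (0.0449) with plasma, and FARS2 with plasma (0.0385) and PRP (0.0452) passed with the block. With voom the cytosolic genes called higher with PRP were 5, the mitochondrial genes called higher 7 with either treatment, and the cytosolic median -0.06 with plasma and -0.0037 with PRP. With median centring the mitochondrial genes called higher with plasma were 7 and the cytosolic medians -0.08 and -0.02. Mitochondrial genes called lower with PRP were 2 to 4 with 1 library left out, 4 without control replicate 1, and 4 without the 3 libraries numbered 1. The 8 genes of all called between PRP and plasma became 4 with no filter, 16 with only those 8 libraries, 1 without the libraries numbered 1, and 4 to 14 with 1 library left out (14 without control replicate 1, 5 without plasma replicate 2 or PRP replicate 3, 4 without plasma replicate 4 or PRP replicate 2). The sign changed only in uncalled comparisons close to 0. With centring these were EPRS1 (0.04) and IARS2 (0.05) with plasma, and FARSA (0.03), GARS1 (0.0037), PARS2 (0.01) and SARS2 (0.06) with PRP. With voom they were EPRS1 (0.05) and IARS2 (0.06) with plasma, and GARS1 (0.0017), HARS1 (0.0045), NARS1 (0.02), PARS2 (0.01), SARS2 (0.07) and WARS1 (0.04) with PRP. With 1 library left out they were, with plasma, EPRS1 (range over libraries -0.05 to 0.02), FARSB (lowest -0.03) and IARS2 (-0.04 to 0.01), and, with PRP, IARS2 (lowest -0.0016), LARS2 (lowest -0.02) and SARS2 (-0.04 to 0.01). Without the libraries numbered 1 they were FARSB (-0.03) and SARS2 (-0.0014) with plasma. The cause was not tested. Uncalled members that passed with 1 library left out included QARS1 with plasma without control replicate 3 (adjusted p = 0.0479), NARS1 with plasma without plasma replicate 4 (adjusted p = 0.0499) and RARS1 with plasma without PRP replicate 4 (adjusted p = 0.0494) and with PRP without control replicate 3 (adjusted p = 0.0219).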

Other observations

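Each library held 2 rows whose name is a number, 36951 and 37316, which a spreadsheet shows as 1 March 2001 and 1 March 2002. They are not counted among the synthetases, and which gene each is was not settled. The row 37316 had a length of 3027 bases in every library, equal to the RefSeq span of MARS2, and no other protein-coding RefSeq gene has that span. It was at 7.23 ± 0.49, 6.57 ± 0.221 and 6.26 ± 0.715 TPM in control, plasma and PRP, with log2 differences of -0.12 (adjusted p = 0.235, limma) and -0.18 (adjusted p = 0.0679). The row 36951, with lengths of 1640 to 2362 bases, was at 87.6 ± 13.6, 84.2 ± 4.14 and 104 ± 20.5 TPM, with log2 differences of -0.04 (adjusted p = 0.786) and 0.23 (adjusted p = 0.128).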
